A study of Mus musculus with 5 samples.

Results

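Lymphoid cells were taken out of a single-cell RNA sequencing study of the femoral and tibial growth plate as the cells that carried RNA of the antigen receptor signalling chains or of Nkg7. A cell was selected when its UMIs (unique molecular identifiers, each marking 1 captured RNA molecule) of Cd79a, Cd79b, Cd3d, Cd3e, Trbc2 and Nkg7 summed to at least 4, when C1qa, C1qb and C1qc together had under 5 UMIs, when S100a8 and S100a9 together had under 20, and when Col2a1 made up under 200 of every 10000 UMIs. Of 82516 cells that passed the limits on detected genes and mitochondrial RNA, 150 met this rule, or 0.182%. The cells were thus chosen by their measured UMIs of the 6 rule genes, the C1q genes, S100a8, S100a9 and Col2a1. The levels of the 6 rule genes and of every gene in them describe the selected cells and are not a test of them against other cells.

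The libraries came from littermates whose strain the labels give as C57BL/6J, 2 WT pups (pups 1 and 2) and 3 mutant pups (pups 3, 4 and 5), with 1 BD Rhapsody library for each pup. The mutants carried a conditional knock-in of the Trpv4 p.R594H allele that Col2a1-Cre switched on. The Cre line had been made on a mixed B6SJLF1 background and backcrossed to C57BL/6J, so the pups need not be fully of that strain. TRPV4 is a calcium-permeable ion channel, and Col2a1-Cre acts in cells of the cartilage lineage, so the lymphoid cells are not the cells in which the allele was meant to be switched on. The sample labels give an age of postnatal day 5 and call the cells chondrocytes, while the design text of the series gives postnatal day 3. The tibial and femoral epiphyses were cleared of muscle with an enzyme mix and then digested to single cells, and neither the labels nor the study's methods name a sort that would remove blood cells.

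B cells arise in the marrow and, around birth, in the liver, through stages in which the genes of the immunoglobulin chains are cut and joined. A pre-B cell first pairs its new heavy chain with a surrogate light chain, made by Igll1 and Vpreb1, and later replaces it with a rearranged kappa or lambda light chain. T cells read antigen through a receptor of alpha and beta or of gamma and delta chains, and the delta-chain cells enter tissues early in life. Innate lymphoid cells and natural killer (NK) cells lack such receptors and are told apart by their cytokines, granzymes and receptors of the Klr family.

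The 150 cells were spread unevenly over the libraries. WT pup 1 gave 85 of them (56.7%), WT pup 2 gave 35, mutant pup 3 gave 22, mutant pup 4 gave 3 and mutant pup 5 gave 5. The kept cells numbered 15121, 16561, 19133, 17887 and 13814 in the same order, with a median of 6000 to 9261 UMIs a cell. The selected cells had a median of 9714 UMIs in WT pup 1, 4397 in WT pup 2, 5322.5 in mutant pup 3, 2567 in mutant pup 4 and 6631 in mutant pup 5. Pairs of libraries shared 3 to 7 cell barcodes, and no barcode of a selected cell occurred in another library. Xist, which is transcribed from the inactive X chromosome, reached 646 and 632 UMIs per 1000000 UMIs of the summed cells (CPM) in the other kept cells of mutant pups 3 and 4 and 0.223 or less in the other 3 pups. Ddx3y, a gene of the Y chromosome, had UMIs in 54, 19 and 3 selected cells of pups 1, 2 and 5 and in 0 of pups 3 and 4, so sex differed between the genotype groups.

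**Figure D1:**
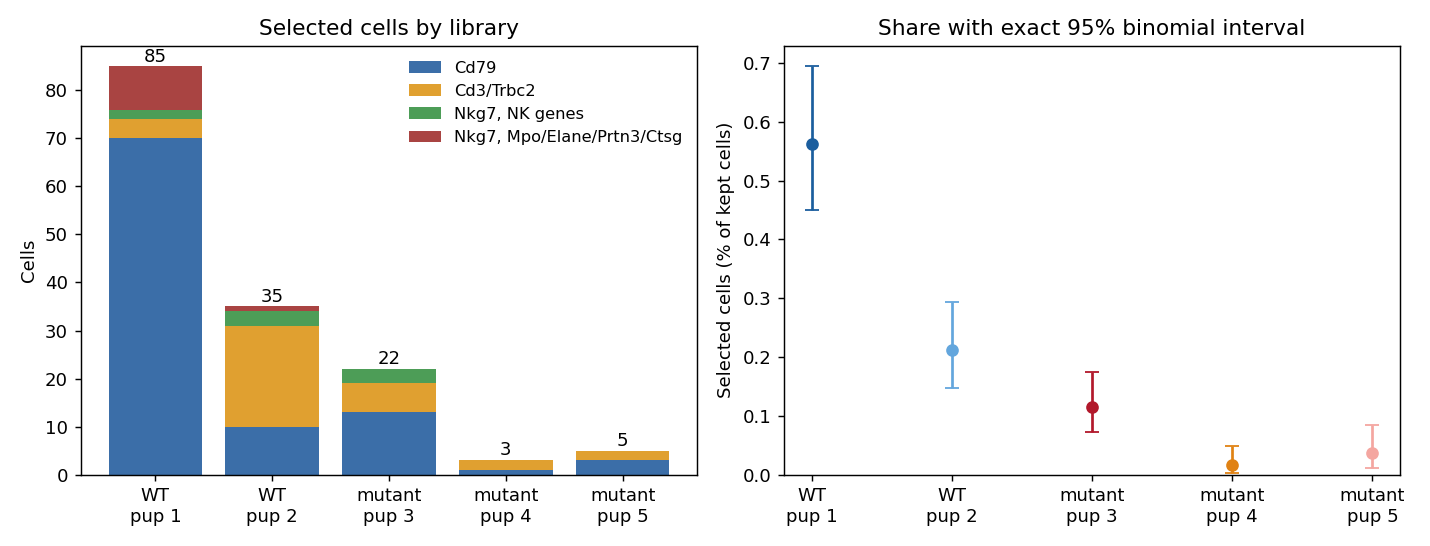
Left, number of selected cells in each of the 5 libraries, stacked by the rule sum that was largest in the cell and, for Nkg7, by the genes found beside it. Right, selected cells as a percentage of kept cells, with exact 95% binomial intervals that cover counting error only. WT pup 1 holds 85 of the 150 cells, and both WT points, at 0.562% and 0.211%, lie above the 3 mutant points.

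The first comparison asked whether growth plate preparations of the genotypes held different shares of lymphoid cells. They made up 0.562% of the kept cells of WT pup 1 (exact 95% binomial interval 0.449 to 0.695%) and 0.211% of WT pup 2 (0.147 to 0.294%). In the mutants they made up 0.115% of pup 3 (0.0721 to 0.174%), 0.0168% of pup 4 (0.00346 to 0.0490%) and 0.0362% of pup 5 (0.0118 to 0.0844%). Both WT values lay above all 3 mutant values, with a mean of 0.387% ± 0.248 (SD, n = 2) against 0.0560% ± 0.0520 (SD, n = 3). The two-sided exact permutation test gave p = 0.1, which is the smallest p that 2 pups against 3 can give, and 0.2 after Benjamini-Hochberg adjustment over the 4 measures tested this way. Without WT pup 1 the difference between the means shrank from -0.331 to -0.155 percentage points, and without WT pup 2 it grew to -0.506. Among the 3 pups with Ddx3y UMIs the values were 0.562% and 0.211% in the WT pups and 0.0362% in mutant pup 5.

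Other blood cells differed between the same libraries. Cells with 20 or more UMIs of S100a8 and S100a9, which encode a calcium-binding protein pair of neutrophils, made up 1.08% and 0.417% of the WT libraries and 0.293%, 0.0447% and 0.166% of the mutant libraries. Erythroid genes took 0.132% and 0.130% of the UMIs of the other kept cells in the WT pups and 0.0841%, 0.0239% and 0.0250% in the mutant pups. These shares were higher in both WT libraries, as the lymphoid share was, and their part in the result was not tested. C1q macrophages, by contrast, overlapped between genotypes, at 0.423% and 1.39% in the WT pups against 1.11%, 0.593% and 0.413% in the mutants. Per 100 C1q macrophages there were 133 lymphoid cells in WT pup 1 and 15.2 in WT pup 2, and 10.4, 2.83 and 8.77 in mutant pups 3, 4 and 5. This ratio also separated the groups, with p = 0.1 in the exact permutation test (adjusted p = 0.2), with means of 74.0 ± 83.2 (SD, n = 2) and 7.33 ± 3.98 (SD, n = 3). WT pup 1 set most of this gap: without it the difference fell from -66.7 to -7.83, and without WT pup 2 it was -125.

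Some of the selected cells lay near the edge of the rule. At the threshold, 13 cells held exactly 4 rule UMIs and 18 held 5, the first with a median of 5638 UMIs in all, and 19 cells that met the other limits held 3, with a median of 4717. With a minimum of 6 in place of 4 mutant pup 3 had 14 cells in place of 22, and with a minimum of 3 it had 29. The median selected cell held 8 rule UMIs and the highest held 33. Of 202 kept cells with 4 or more rule UMIs, 29 were over the limit for S100a8 and S100a9, 24 over that for Col2a1 and 1 over that for C1q, some of them over more than 1 limit. The same genes were also found at a low level in cartilage cells: among 9043 to 10411 cartilage cells a library with Col2a1 at or above the limit, 0.0986 to 0.421% held a Cd79a UMI and 0 to 0.0647% an Nkg7 UMI, at medians of 6769 to 10781.5 UMIs a cell. Of these cartilage cells 18, 4, 1, 0 and 1 in pups 1 to 5 held 4 or more rule UMIs, and whether free RNA or doublets gave them was not tested.

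By the largest rule sum in each cell, 97 cells were selected through Cd79a and Cd79b, 35 through Cd3d, Cd3e and Trbc2, and 18 through Nkg7, with no ties. Markers that the rule did not use were then counted. Each of the 97 Cd79 cells held UMIs of at least 3 of 8 B-lineage markers, with a median of 6, and none held 3 markers of T or NK cells, so they are called B-lineage-like. Among the Cd3/Trbc2 cells, 28 of 35 held at least 3 of 7 T-cell markers and are called T-cell-like, and 8 of 35 held at least 3 of 7 markers of NK and innate lymphoid cells. Of the Nkg7 cells, 8 of 18 held at least 3 of the 7 NK and innate lymphoid markers and are called NK/ILC-like, 2 of these with 3 T-cell markers as well, and 10 held none. Those 10 carried RNA of the neutrophil granule proteins instead, against the label of lymphoid cells.

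**Figure D2:**
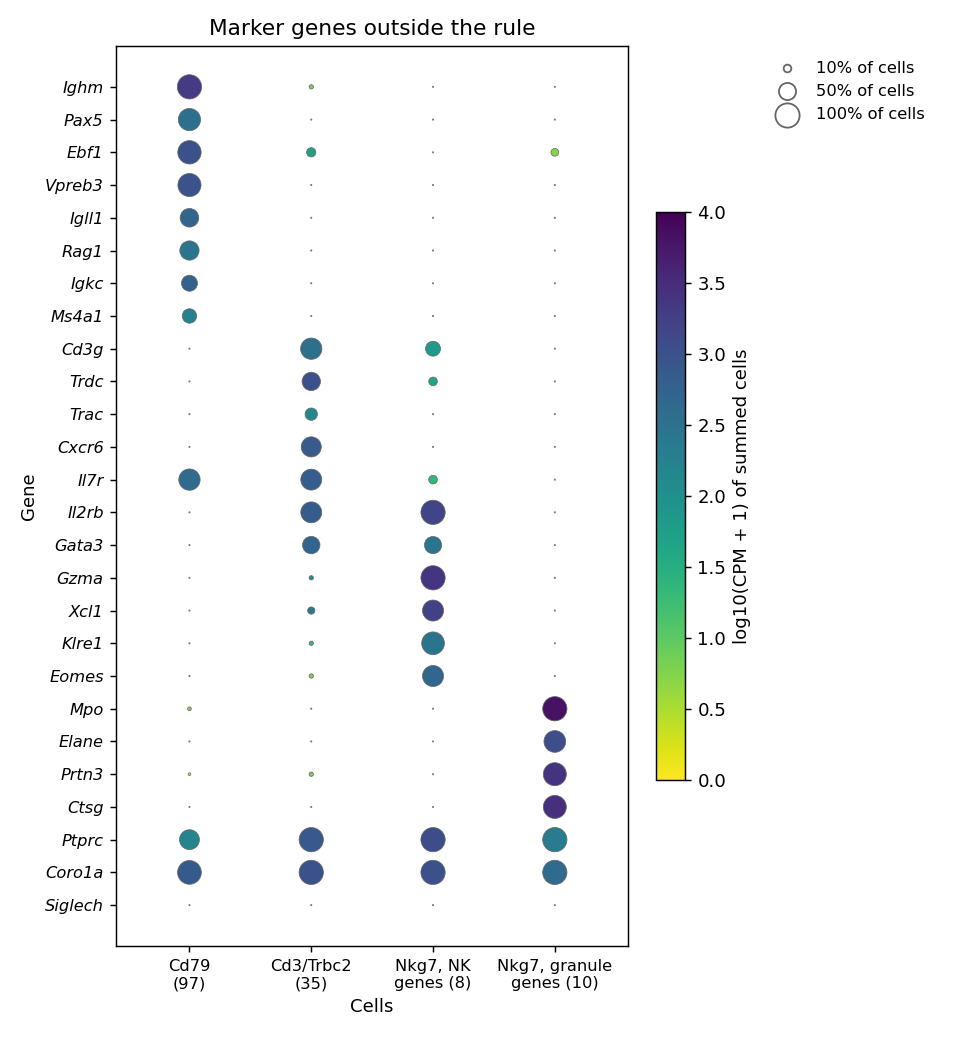
Marker genes that the rule did not use, in the 4 kinds of selected cell, with the number of cells in brackets. Dot area gives the percentage of cells with a UMI and colour the CPM of the summed cells on a log10 scale. Ighm is in 100% of the Cd79 cells, Gzma in 8 of 8 Nkg7 cells with NK genes, and Mpo in 10 of 10 of the other Nkg7 cells, while Siglech is at 0 in every kind.

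The kinds took different shares of each library. Cd79 cells were 70 of 85 in WT pup 1 and 10 of 35 in WT pup 2, and 13 of 22, 1 of 3 and 3 of 5 in mutant pups 3, 4 and 5. Cd3/Trbc2 cells were 4, 21, 6, 2 and 2 in the same order, and Nkg7 cells 11, 4, 3, 0 and 0. The WT pups had the highest and the lowest share of Cd79 cells, 82.4% and 28.6%, and the mutants lay between at 59.1%, 33.3% and 60.0%. The means were 55.5% ± 38.0 (SD, n = 2) and 50.8% ± 15.1 (SD, n = 3), with p = 1 in the exact permutation test (adjusted p = 1). Median UMIs of the selected cells overlapped too, with means of 7055.5 and 4840 (p = 0.5, adjusted p = 0.667, exact permutation test).

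The B-lineage-like cells carried RNA of the B-cell receptor, its signalling chains and the factors of early B cells. Ighm, the heavy chain of IgM, was found in 97 of 97 cells at 2044 CPM of the summed cells, and Cd79a, its signalling partner, at 978 CPM. Several genes of the B-cell transcription factor list were broad. Ebf1 was in 92.8% of cells (1026 CPM), Pax5 in 83.5% (347 CPM), Pou2af1 in 90.7% (455 CPM) and Ikzf1 in 94.8% (542 CPM). Ikzf1 was not particular to these cells, as it was also in 68.6% of the Cd3/Trbc2 cells and in all 18 Nkg7 cells. The mature B-cell gene Ms4a1, which encodes CD20, was in 35.1%. Genes of receptor signalling were also broad, with Blnk, the adaptor of the pre-B receptor, in 83.5%, Syk in 79.4% and Btk in 67.0%. Genes of later B cells were mixed. Cd22, an inhibitory coreceptor, was in 38.1% of the cells, Ighd, the heavy chain of IgD, in 27.8% and Cxcr5, a follicle homing receptor, in 25.8%, while Cr2 had 1 UMI and Fcer2a 4. Of the plasma cell list Txndc5 was in 35.1% of the cells at 59.0 CPM, against 219.8 CPM in the other kept cells, and Jchain, Mzb1 and Tnfrsf17 had none in 948859 UMIs, which allows up to 3.16 CPM.

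The pre-B genes were among those with the largest fold over the other kept cells. Vpreb3 was in 90.7% of the Cd79 cells at 966 CPM, Igll1 and Vpreb1 were each in 58.8% at 519 and 430 CPM, and Vpreb2, a near-identical copy of Vpreb1 whose reads may be split with it, was in 34.0%. Rag1 and Rag2, the recombinase that cuts the receptor genes, were in 62.9% and 48.5%. WT pup 1 carried most of this: a UMI of either gene was in 59 of its 70 Cd79 cells and in 2 of 10, 3 of 13, 0 of 1 and 2 of 3 of those of pups 2 to 5, and after thinning to 1000 UMIs in 25, 1, 1, 0 and 1. Dntt, the polymerase that adds untemplated bases at the joints, was in only 7.22% of the cells, 35 UMIs in all. Of the list of fetal and B-1 lymphopoiesis, Igf2bp3 was in 70.1% and Lin28b in 18.6%, while Cd5 of the B-1 lineage had 4 UMIs. Igf2bp3 was not particular to lymphoid cells, as it was also in 64.3% of the C1q macrophages. The 10 Nkg7 cells with granule genes all held it, at 316 CPM against 219 CPM in the Cd79 cells. Lin28b was in 17 cells of WT pup 1 and 1 cell of mutant pup 3. Il7r, the receptor for the growth factor of early B cells, was in 77.3%.

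Igll1 and Vpreb1 lie side by side on mouse chromosome 16, with 4970 bases between their promoter windows. Their windows, and that of Cd79a, are shown because these 3 genes define the Cd79 cells and the pre-B stage among them. Each window runs from 250 bases before to 50 bases after the gene start in RefSeq (GRCm38.p6), 5′ to 3′ on the strand of the gene, and capitals mark CAGGTG or its reverse complement, the E-box bound by E2A (Tcf3), a founding factor of the B lineage. The windows are chr16:16869206-16869505, minus strand for Vpreb1, chr16:16863936-16864235, minus strand for Igll1 and chr7:24897247-24897546, plus strand for Cd79a.
Vpreb1: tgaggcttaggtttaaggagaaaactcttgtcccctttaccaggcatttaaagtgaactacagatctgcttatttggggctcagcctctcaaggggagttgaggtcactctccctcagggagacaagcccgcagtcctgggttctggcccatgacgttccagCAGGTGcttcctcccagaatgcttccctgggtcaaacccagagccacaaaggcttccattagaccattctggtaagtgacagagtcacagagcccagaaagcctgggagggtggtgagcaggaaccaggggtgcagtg
Igll1: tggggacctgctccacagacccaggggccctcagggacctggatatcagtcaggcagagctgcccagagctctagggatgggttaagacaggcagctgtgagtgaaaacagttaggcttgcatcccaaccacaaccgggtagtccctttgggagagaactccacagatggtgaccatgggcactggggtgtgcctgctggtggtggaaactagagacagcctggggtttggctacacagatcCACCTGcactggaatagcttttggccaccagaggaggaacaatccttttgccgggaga
Cd79a: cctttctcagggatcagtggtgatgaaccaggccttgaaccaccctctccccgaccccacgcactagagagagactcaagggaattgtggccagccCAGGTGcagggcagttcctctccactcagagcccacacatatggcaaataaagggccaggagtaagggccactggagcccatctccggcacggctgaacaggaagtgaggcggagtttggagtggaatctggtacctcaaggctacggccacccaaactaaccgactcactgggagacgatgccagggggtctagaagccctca
Of the 12 genes with the largest fold of the Cd79 cells over the other kept cells, 9 had a window, and 4 of these held the E-box (Cd79a, Igll1, Rag1 and Vpreb1), against 20.03% of 27025 windows, 1 for each gene symbol. None held the only form of the EBF1 site searched, which is in 0.914% of all windows. Other forms of that site were not searched, so the result does not show that these windows lack EBF1 sites. Tcf3 itself had UMIs in 84.5% of the Cd79 cells. These matches describe letters in the windows only, and 6 motifs were searched after matches in some of these genes had been seen.

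RNA of the surrogate light chain and of the kappa and lambda constant genes was rarely found in the same cell. Of the 97 cells, 53 held at least 2 UMIs of Igll1 and Vpreb1 and under 2 of Igkc and the lambda genes Iglc1, Iglc2 and Iglc3, and 37 held the reverse. Only 3 cells held both and 4 neither. The surrogate pair reached 45 UMIs in a cell and the light chains 65. Kappa dominated the light chains, with 545 UMIs of Igkc against 46 of the lambda genes, and 36 of the 37 light-chain cells had more kappa than lambda UMIs. Of 7 cells with at least 2 lambda UMIs, 6 also held at least 2 kappa UMIs. Whether these RNAs came from rearranged genes was not tested. As the groups were cut from these UMIs, their separation by Igll1, Vpreb1 and the light chains is their definition.

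**Figure D3:**
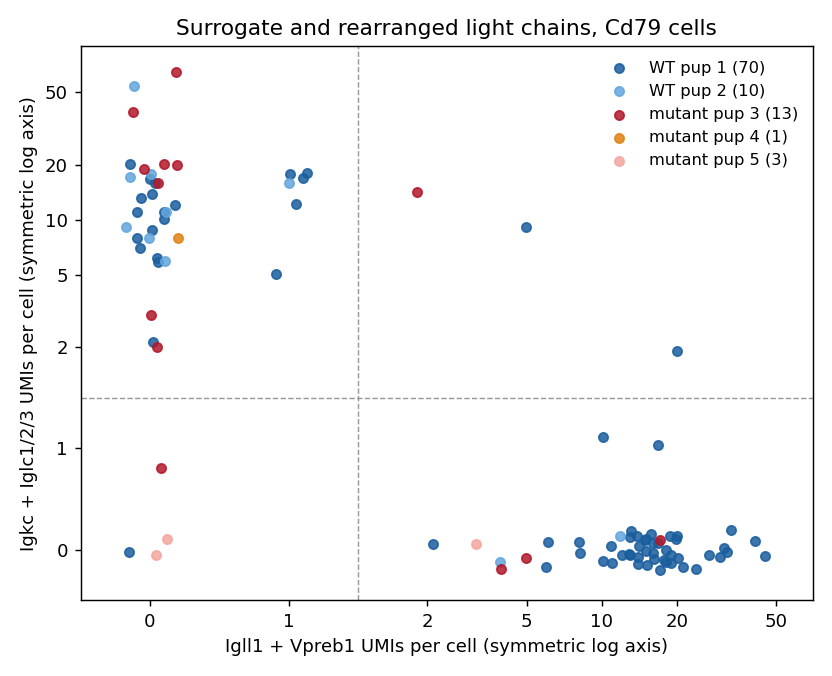
Each point is 1 of the 97 Cd79 cells, placed by its UMIs of Igll1 and Vpreb1 and by its UMIs of the light chain constant genes. A small random shift keeps points from overlapping, and dashed lines mark the minimum of 2 UMIs. Cells lie along the axes, 53 along the surrogate axis, mostly from WT pup 1, and 37 along the light chain axis.

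Genes outside that definition followed it. In the surrogate cells Lef1, a transcription factor of pre-B growth, was at 527 CPM against 88.7 in the light-chain cells, Erg at 199 against 17.7, Cplx2 at 371 against 106 and Rag1 at 331 against 160. Lin28b had 25 UMIs in 17 surrogate cells and none in the light-chain cells. Of its 26 UMIs in all Cd79 cells, 25 lay in WT pup 1. In the light-chain cells genes of the MHC class II list and of the maturing B cell were higher: Cd74, the invariant chain of MHC class II, was at 905 CPM against 22.4, Ms4a1 at 585 against 38.9, Ccr7, a homing receptor, at 368 against 28.4, Ly6d at 306 against 31.4 and Spib at 452 against 94.2. Ighm was at 1538 CPM in the surrogate and 3516 CPM in the light-chain cells, and Cd79a at 998 and 953. All 10 genes of the MHC class II list had more CPM in the light-chain cells, among them H2-Aa (38 UMIs against 1) and H2-Ab1 (217 against 74.8 CPM), but H2-DMa, H2-DMb1 and H2-Oa rest on 2 or 3 UMIs there. These are differences between cells of few pups, given without a test. All 42 UMIs of Ighg2b, a heavy chain constant gene, lay in 11 surrogate cells, and 41 of the UMIs lay in 10 cells of WT pup 1.

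Cd74, Ms4a1, Ccr7, Ly6d, Spib, Lef1, Cplx2 and Rag1 kept these directions in each of the 3 pups that had at least 2 cells of both groups, while Erg had no UMI in either group of mutant pup 3. Cd74 was at 24.1 against 550 CPM in WT pup 1 (47 surrogate and 20 light-chain cells), 0 against 873 in WT pup 2 (2 and 8 cells) and 0 against 2151 in mutant pup 3 (3 and 8 cells). Lef1 ran the other way in all 3, at 488 against 141, 790 against 0 and 1809 against 29.9 CPM. Ms4a1 was at 19.3 against 208, 60.8 against 855 and 784 against 1553 CPM, so the surrogate cells of mutant pup 3, from 13 UMIs, lay above the light-chain cells of WT pup 1. The small groups rest on few UMIs.

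The balance of the stages differed between libraries, the WT pups among them, and was not tested between genotypes. Surrogate cells were 47 of 70 Cd79 cells in WT pup 1, 2 of 10 in WT pup 2, 3 of 13 in mutant pup 3, 0 of 1 in mutant pup 4 and 1 of 3 in mutant pup 5. WT pup 1 also had the deeper cells, so each cell was thinned to 1000 UMIs, which left no cell out: a surrogate UMI was then found in 57.1% of the Cd79 cells of WT pup 1 (77.1% unthinned), 2 of 10 cells of WT pup 2 (3 of 10) and 23.1% of mutant pup 3 (30.8%). Light chain UMIs went the other way after thinning, in 24.3%, 6 of 10 cells and 61.5% (34.3%, 8 of 10 and 76.9% unthinned). The 1 Cd79 cell of mutant pup 4 held light chain UMIs alone, and the 3 of mutant pup 5 held no light chain UMI, with surrogate UMIs in 1 of 3 before and 0 of 3 after thinning. In both measures WT pup 2 lay closer to mutant pup 3 than to WT pup 1.

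Genes of dividing cells were frequent in the Cd79 cells. At least 2 UMIs of Mki67 and Top2a were found in 74 of 97 cells, 47 of the 53 surrogate cells and 22 of the 37 light-chain cells. These 74 cells were 62 of 70 in WT pup 1 and 3 of 10, 7 of 13, 0 of 1 and 2 of 3 in pups 2 to 5. The 18 genes of the S phase list took 0.494% of their UMIs and the 18 of the G2/M list 0.633%, against 0.0589% and 0.0947% in the other kept cells. A median surrogate cell gave 1.23% of its UMIs to the genes of both lists and a median light-chain cell 0.712%, but this order did not hold in every library: the surrogate and light-chain cells were at 1.31% and 1.54% in WT pup 1, at 1.40% and 0.120% in WT pup 2 and at 0.206% and 0.394% in mutant pup 3. The chemokine receptor Cxcr4, which holds B-cell precursors in the marrow, was in 93.8% of the Cd79 cells at 784 CPM.

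The 35 Cd3/Trbc2 cells came mostly from WT pup 2, and a delta receptor chain was more frequent among them than an alpha chain. Cd3e was in 68.6% of them at 470 CPM and Cd3g, which the rule did not use, in 77.1%. Trdc, the constant region of the delta chain, was in 57.1% at 1007 CPM, and Trac, that of the alpha chain, in 25.7% at 136 CPM. Cd4 had 3 UMIs in 2 cells, and Cd8a and Cd8b1 had none in 191636 UMIs, which allows up to 15.7 CPM. Some genes of tissue-dwelling and innate-type lymphocytes were frequent: Rora in 82.9%, Ccr2 in 77.1%, Il2rb in 74.3%, Il7r in 74.3%, Cxcr6 in 68.6% and Icos in 60.0%. Rora and Il7r were not particular to these cells: Rora was in 49.7% of the other kept cells and Il7r in 77.3% of the Cd79 cells. The innate lymphoid and NK list was mixed, with Il18r1 in 51.4%, but Fcer1g in 11.4%, Tbx21 in 8.57% and Tyrobp in 5.71%. Foxp3, the factor of regulatory T cells, had 0 UMIs.

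The promoter window of Cd3e, which gives the CD3 epsilon chain found in most of these cells, is shown for the same E-box, chr9:45009562-45009861, minus strand (RefSeq, GRCm38.p6), with the match in capitals.
Cd3e: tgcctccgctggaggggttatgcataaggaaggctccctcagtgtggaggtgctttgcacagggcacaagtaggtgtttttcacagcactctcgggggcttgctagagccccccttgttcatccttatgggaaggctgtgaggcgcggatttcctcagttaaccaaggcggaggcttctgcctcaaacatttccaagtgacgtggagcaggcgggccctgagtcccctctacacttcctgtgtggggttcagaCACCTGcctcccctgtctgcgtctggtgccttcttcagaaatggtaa
Only 4 of the 12 leading genes of these cells had a window, and Cd3e and Cd3g of these held the E-box, against 20.03% of all windows. Among the leading genes of the Nkg7 cells it was in 1 of 11 windows for the cells with granule genes and 1 of 8 for the NK/ILC-like cells. Tcf3 had UMIs in only 11.4% of the Cd3/Trbc2 cells, against 28.3% of the other kept cells. The receptor constant genes had no window in the table used here.

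Receptor genes split these cells into 4 sets. At least 2 UMIs of Trdc and under 2 of Trac were found in 16 cells, the reverse in 5 cells, both in 2 cells, and neither in 12 cells. The 16 Trdc cells came from WT pup 1 (3), WT pup 2 (9) and mutant pup 3 (4). Each of them also held UMIs of Trgc1, a gamma chain constant gene (1112 CPM), which the split did not use, and 13 held Trdv4, a delta chain variable gene, 24 UMIs in all. The gamma constant genes resemble each other, as do Trbc1 and Trbc2 and the lambda genes, so their reads may be shared between copies. Maf was in 16 of the 16 cells at 1438 CPM, Blk in 13, Sox13 in 9, Il1r1 in 12 and Cxcr6 in 14, a set known from gamma-delta T cells that make interleukin 17. Il17a itself had 41 UMIs in 7 of the cells.

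The 5 Trac cells looked different and came from 4 libraries: 2 from WT pup 2 and 1 from each mutant pup. All 5 held Ccr7, a receptor that guides naive T cells into lymph nodes, at 1638 CPM, with Lef1, Tcf7 and Satb1 in 5 of 5. Cxcr6, Ccr2, Blk, Maf and Fos had no UMI in any of them. Cd4 was found in 2 of the 5.

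The 12 cells with under 2 UMIs of each receptor gene differed again, and several carried genes known from group 2 innate lymphoid cells. Trdc had 2 UMIs in 2 of the 12, Trgc1 4 UMIs in 2 and Trac none. Cd3e had 3 UMIs in 3 of them and Cd3g 21 UMIs in 10, and Trbc2, which the rule used, was in 12. Some of the 12 are among the 28 of 35 cells called T-cell-like, as the marker count did not use this split. Gata3 was in 11 cells (817 CPM), Rora in 12 (1564 CPM), Icos in 10 (1226 CPM) and Il1rl1, the receptor for interleukin 33, in 5 (564 CPM). The type 2 cytokine genes Il5 and Il13 were in 4 cells each, with 94 and 15 UMIs, Areg, a growth factor of tissue repair, was in 4 with 31 UMIs, and Csf2 in 5 with 61 UMIs. In the Trdc and Trac cells Il1rl1, Il5, Il13 and Areg had no UMI. These 12 cells came from every library, 8 of them from WT pup 2 and 1 from each of the others. One of them, from WT pup 1, held 38 UMIs of 6 NK-cell genes.

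**Figure D4:**
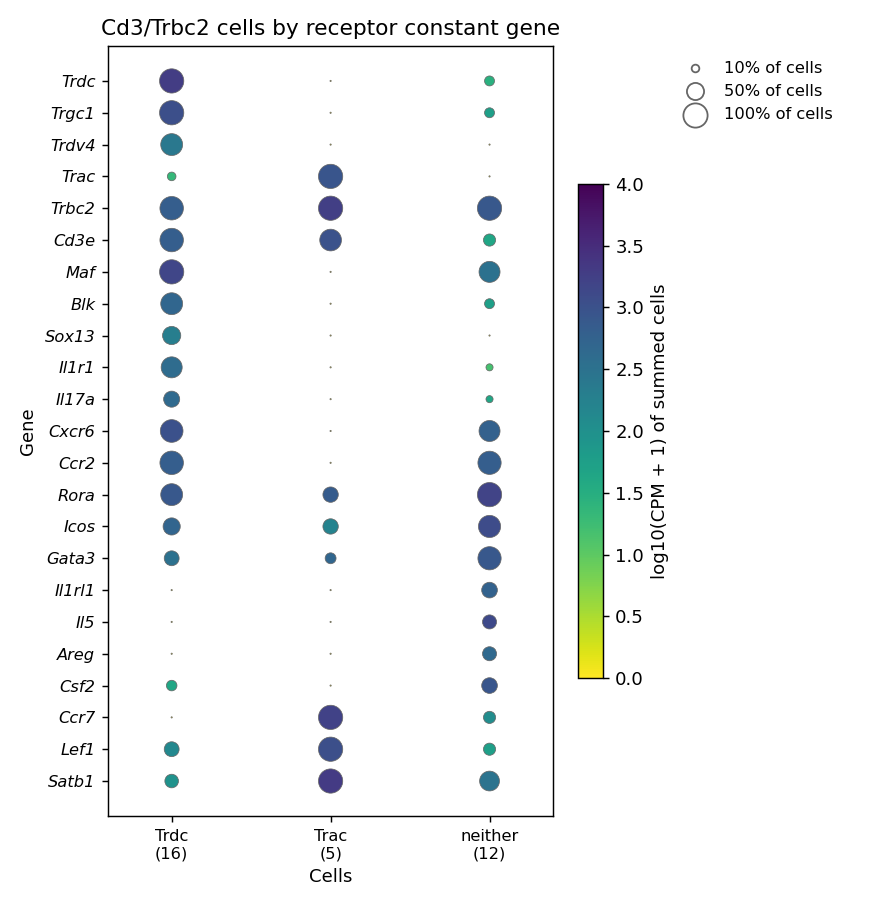
Genes of the Cd3/Trbc2 cells split by UMIs of Trdc and Trac, with the number of cells in brackets. The 2 cells with both are not drawn, and neither means under 2 UMIs of each. Dot area gives the percentage of cells with a UMI and colour the CPM of the summed cells on a log10 scale. Sox13 and Trdv4 have UMIs only in the Trdc cells of the 3 sets drawn, Ccr7 is in 5 of 5 Trac cells, Il1rl1, Il5 and Areg are only in cells with neither, and Maf is in 16 Trdc cells and in 9 of the 12 cells with neither.

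Among the Cd3/Trbc2 cells at least 2 UMIs of Mki67 and Top2a were found in 14 of 35, among them 7 of the 16 Trdc cells and 0 of the 5 Trac cells. The 18 genes of the dissociation and immediate early list took 1.46% of the UMIs of the Cd3/Trbc2 cells, 0.705% of the Cd79 cells and 1.72% of the other kept cells. Kind and library were mixed in these values: the Cd3/Trbc2 and Cd79 cells were at 1.56% and 0.528% in WT pup 1, at 1.53% and 2.53% in WT pup 2, and at 1.02% and 0.870% in mutant pup 3. The list also holds heat shock genes and Cd69. Its highest gene in the Cd79 cells was the heat shock gene Hsp90aa1, at 1670 CPM against 482 in the other kept cells.

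The 18 Nkg7 cells were of 2 kinds with no cell in between. Nkg7, which selected them, encodes a membrane protein of cytotoxic granules. In 8 cells, 2 from WT pup 1, 3 from WT pup 2 and 3 from mutant pup 3, 10 genes of NK cells had 18 to 103 UMIs a cell and the neutrophil granule genes Mpo, Elane, Prtn3 and Ctsg had none. In the other 10 cells, 9 from WT pup 1 and 1 from WT pup 2, the granule genes had 26 to 556 UMIs a cell and the NK genes had none. The cells with granule genes had more UMIs, with 14282 to 29723 UMIs against 2622 to 13461.

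**Figure D5:**
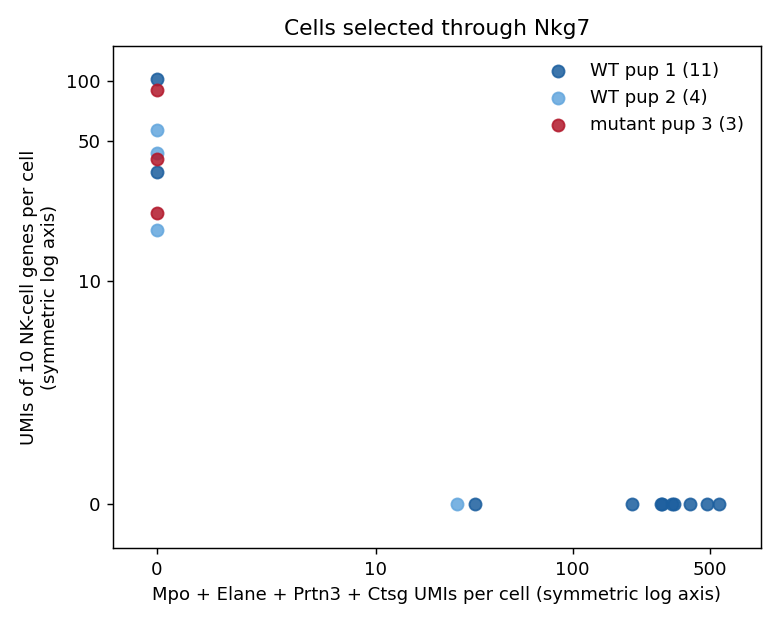
Each point is 1 of the 18 cells selected through Nkg7, placed by its UMIs of 4 neutrophil granule genes and by its UMIs of 10 NK-cell genes (Gzma, Klrd1, Klre1, Klrk1, Ncr1, Klrb1c, Il2rb, Eomes, Ccl5 and Xcl1). The 8 cells on the vertical axis have 18 to 103 NK-gene UMIs, and the 10 on the horizontal axis have 26 to 556 granule-gene UMIs; some points overlap.

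In the 8 NK/ILC-like cells Gzma, a granzyme, was in 8 at 2433 CPM, Il2rb in 8 at 1540 CPM, Ccl5 in 7 at 1875 CPM and the chemokine Xcl1 in 6 at 1696 CPM. The T-box factors of the lineage were present, Eomes in 6 cells and Tbx21 in 4. Receptors of the Klr family were spread over the cells, Klrb1b in 8, Klre1 in 7, Klrk1 in 6 and Klrd1 in 5, while Klra4 and Klra8, which mark mature NK cells, had no UMI. Prf1, the pore-forming perforin, was in 3 cells. Of the T-cell genes Cd28 was in 5 cells (24 UMIs), Cd247 in 4, and Cd3g, Trbc1 and Trbc2 in 3 each, while Cd3e had no UMI, and each of the 8 cells held at least 1 of the 7 T-cell markers. Cxcr4 was in 8 of 8 at 2745 CPM.

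In the 10 cells with granule genes Mpo was at 6630 CPM, Ctsg at 2803, Prtn3 at 2559 and Elane at 1119. They also held Hdc, Kit and Plac8 in 10 of 10 and Cd34 in 9, and each had at least 6 UMIs of Mki67 and Top2a, genes of dividing cells. The genes of later neutrophils were low, with Ngp, Camp, Ltf, Retnlg and Mmp9 at 0, and S100a8 and S100a9 at 0 to 19 UMIs a cell, under the limit of the rule. Prg2, the major basic protein of eosinophils, was in 3 of the 10 and reached 1277 UMIs together with Epx in 1 of them. In the kept cells 86 cells had 20 or more UMIs of the 4 granule genes, 70 of them in WT pup 1, and 67 of the 86 held an Nkg7 UMI. The 10 selected cells are thus part of a larger set, and cells with granule genes also lay just below the minimum of the rule, 1 at 3 rule UMIs and 6 at 2.

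Prtn3 and Elane are neighbours on mouse chromosome 10, with 6345 bases between their windows, and these are shown because both genes set this kind apart. The windows are chr10:79879417-79879716, plus strand for Prtn3 and chr10:79886062-79886361, plus strand for Elane (RefSeq, GRCm38.p6), and capitals mark GAGGAAGT, a site of the ETS factor PU.1.
Prtn3: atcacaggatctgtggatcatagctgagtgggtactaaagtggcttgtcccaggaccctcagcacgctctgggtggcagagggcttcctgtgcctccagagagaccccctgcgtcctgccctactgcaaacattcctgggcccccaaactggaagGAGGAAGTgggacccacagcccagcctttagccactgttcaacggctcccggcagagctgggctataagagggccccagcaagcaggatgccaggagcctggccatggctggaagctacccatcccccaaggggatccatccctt
Elane: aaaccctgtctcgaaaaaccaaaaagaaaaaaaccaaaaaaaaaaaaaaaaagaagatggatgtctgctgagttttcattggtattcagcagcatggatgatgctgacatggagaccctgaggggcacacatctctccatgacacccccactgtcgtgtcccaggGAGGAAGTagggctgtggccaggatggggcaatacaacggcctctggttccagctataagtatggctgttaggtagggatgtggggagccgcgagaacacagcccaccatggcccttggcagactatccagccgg
Among the 12 leading genes of these cells 11 had a window, and 4 held these letters on either strand (Atp8b4, Elane, Mpo and Prtn3), against 3.28% of all windows. None of the 9 windows of the leading Cd79 genes, the 4 of the Cd3/Trbc2 genes or the 8 of the NK/ILC-like cells held them. The RUNX site TGTGGTT, in 5.37% of all windows, was in windows of every kind: 2 of 9 of the Cd79 cells (Igll1 and Rag1), 1 of 4 of the Cd3/Trbc2 cells (Il7r), 2 of 11 of the cells with granule genes (Plac8 and Prg3) and 3 of 8 of the NK/ILC-like cells (Gzma, Gzmb and Xcl1). TTGCGCAA, the only form of the C/EBP site searched and in 0.185% of all windows, was in none of the leading windows. The GATA site AGATAAG, in 3.08%, was only in that of Cd3g.

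Without the 10 cells, lymphoid cells numbered 76, 34, 22, 3 and 5 in pups 1 to 5. The difference in their share, mutant minus WT, was then -0.298 percentage points in place of -0.331, with p = 0.1 in the exact permutation test.

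RNA of other cell types in the selected cells was counted as well. The C1q genes, which the rule limits to under 5 UMIs, had 0, and Csf1r and Adgre1 had 3 UMIs each, all in the cells with granule genes. The 13 genes of the macrophage and monocyte list took 0.0380% of the UMIs, against 0.0143% in the other kept cells, led by Ly6c2 (229 UMIs), Ccr2 (144), which T cells also express, and Ctss (83), while Fcgr1 and Ms4a7 had none. Siglech, the defining gene of plasmacytoid dendritic cells, had none. RNA of the surrounding tissue was in nearly every cell: Col2a1 of cartilage had a median of 7.31 per 10000 UMIs, and Col1a1, of the fibroblast and perichondrial list, was in 150 of 150 cells. Haemoglobin genes had 20 or more UMIs in 8 cells, 2 from WT pup 1, 3 from WT pup 2 and 3 from mutant pup 3. They took 0.166%, 1.73% and 4.12% of the summed UMIs of the selected cells in these pups and 0.00292% or less in the other 2, and the sums compared between genotypes include them. No doublet caller was run, and 4 cells held at least 2 UMIs of both the Cd79 and the Cd3/Trbc2 sums. Trpv4 had 7 UMIs over 5 of the 150 cells (4.98 CPM) against 132 CPM in the other kept cells, so the channel was hardly detected in them. Store-operated calcium entry, through which antigen receptors signal, was represented by Stim1 (118 UMIs), Orai1 (71) and Orai2 (65).

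Last, UMIs of the selected cells were summed for each pup and compared between genotypes across all genes. With edgeR's quasi-likelihood test 0 of 2899 genes passed an adjusted p of 0.05 (background 0%), 61 had an unadjusted p under 0.05, and DESeq2 called 2 genes (Sparc and Thbs1, both lower in the mutants, background 0.069%). The count depended on single libraries: 32 genes passed without WT pup 1, among them Col1a1, Col3a1 and Dcn of the matrix, and 22 without WT pup 2, and in the Cd79 cells alone 12 passed. The sums were uneven, 1034902 and 213776 UMIs in the WT pups and 115560, 8395 and 34235 in the mutants, so differences that rest on mutant pups 4 and 5 were hardly measurable.

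The genes with the lowest p were not lymphoid genes, and they are named here after their values were seen. Thbs1, an extracellular matrix protein, had 440 and 74 UMIs in the selected cells of WT pups 1 and 2 and none in the mutants (adjusted p = 0.282, edgeR quasi-likelihood test). Of the 440 UMIs of WT pup 1, 408 lay in its selected cells with granule genes, of which the mutants had none among the selected cells, and of the 74 of WT pup 2, 70 lay in 1 Cd79 cell. Thbs1 was not among the genes tested when the cells with granule genes were left out or when only Cd79 cells were used. Sparc, a bone matrix protein, was at 1432 and 2503 CPM in the WT pups and at 199, 476 and 351 CPM in the mutants, a log2 difference of -2.99 (adjusted p = 0.282). Col1a1 was at 5590 and 12981 CPM in the WT pups and 857, 4407 and 1110 CPM in the mutants, a log2 difference of -2.75 (adjusted p = 0.478). The groups of these values did not overlap. In the other kept cells of the same pups Col1a1 was at 36780, 32350, 42705, 52040 and 32285 CPM and Sparc at 19600, 14936, 15299, 17302 and 17726 CPM. There the WT pups did not both stand above the mutants, though Sparc was highest in WT pup 1 and lowest in WT pup 2. The 9 fibroblast and perichondrial markers together took 0.992% and 2.43% of the UMIs of selected cells in the WT pups and 0.182%, 0.739% and 0.175% in the mutants, and what part they had in the result was not tested.

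No tested gene of the lists passed in either direction. The receptor lists hold none of the 6 rule genes, but the cells were selected through genes of the same receptors. The values of these lists are a description. Of the list of pro-B and pre-B genes 10 of 16 were tested, with a median log2 difference of -0.77, of the B-cell receptor list 8 of 16 (0.58), of the T-cell receptor list 8 of 15 (0.72), of the S phase list 15 of 18 (-0.39) and of the G2/M list 16 of 18 (-0.33). The fibroblast and perichondrial list had the lowest median (5 of 9 tested, -2.98) and the MHC class II list the highest (1 of 10 tested, 1.62), beside a median of -0.13 over all genes tested. As the kinds and stages took different shares of each pup, these medians compare mixtures of cells.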

How the data were processed

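Growth plate cells of 5 pups were captured on BD Rhapsody HT Express. For each library the authors deposited a matrix of raw UMI counts, made with the BD pipeline; the build is mm10 per the labels, and the pipeline version and annotation are not given in the sources used here. The files held 14003 to 19589 barcodes and 117746735 to 183322632 UMIs a library, fewer cells than the study set out to sequence. Cells with 200 to 6000 genes and at most 10% mitochondrial UMIs were kept, after the limits of the study; counts were not otherwise corrected, and no doublet caller was run. The members, gene lists and motifs were chosen with earlier results of these data known. Named genes were the rule genes, the most abundant and the absent genes of each list, and those with the largest fold over other cells; others were picked after their values were seen. Of 377 listed genes 376 are in the files, 3 of them under another symbol (RefSeq synonyms, GRCm38.p6). CPM are UMIs of a gene per 1000000 UMIs of the summed cells.

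Genotypes were compared over pups with two-sided exact permutation tests (10 groupings) and, for genes, with edgeR 4.0.16 on sums per pup (quasi-likelihood test with a robust fit, TMM scaling, the filterByExpr default, and a Benjamini-Hochberg adjusted p of 0.05), tested on simulated data first; DESeq2 1.42.0 was an alternative. The pups were littermates, so p-values measure the spread between pups of the same parents. Intervals and limits for counts of 0 (3 UMIs) cover counting error only. Other analyses used Python 3.11.15, numpy 2.4.6, scipy 1.17.1 and R 4.3.3. Alternatives were other limits of the rule, thinning, other denominators, scaling and filters, and leaving out each pup. Some genes are not reported here.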

Additional observations from a re-analysis of the deposited data

How the results depend on the processing

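The lower share of lymphoid cells in the mutants kept its direction in 12 of 12 alternatives, from -0.826 to -0.269 percentage points over other limits, denominators and thinning to 2000 UMIs with the minimum lowered to 2 rule UMIs, and from -0.506 to -0.155 when each pup was left out, the value nearest 0 being that without WT pup 1. The ratio to C1q macrophages kept its direction in 10 of 10, from -125 to -7.83 per 100 when each pup was left out, again nearest 0 without WT pup 1, and from -69.4 to -58.1 otherwise. In both measures every WT value lay above every mutant value, so leaving out a pup could not reverse the direction and shows only the size. With 2 pups against 3 none of these could pass a threshold of 0.05. The Cd79 share (-4.65 points, mutant minus WT) reversed to 0.799 with the mitochondrial limit at 20%, which adds 1 Cd79 cell each in WT pup 1 and mutant pup 4, and ran from -31.5 to 22.2 when each pup was left out (22.2 without WT pup 1, 4.08 without mutant pup 4). Median depth (-2215 UMIs) ran from -4874 to 443 when each pup was left out, reversing without WT pup 1.

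The count of genes called between genotypes was 0 and rose to 12 in the Cd79 cells alone, where all were lower in the mutants (Bgn, Col1a2, Col3a1, Col6a1, Col6a2, Fmod, Sparc, Fos, Fosb, Jun, H19 and Itm2a), to 23 with no filter on low counts, to 2 with DESeq2 (Sparc and Thbs1) and to 2 in the 3 pups with 20 or more selected cells (Thbs1 and Xist). It ran from 0 to 32 when each pup was left out, 32 without WT pup 1 and 22 without WT pup 2; without WT pup 2 the WT cells are those of pup 1, 70 of 85 of them Cd79 cells, and the calls included Tcf7, Gata3 and Icos, which were higher in the mutants, and the granule genes Mpo, Elane, Prtn3 and Ctsg, which were lower. Where 1 pup remained in a group it was assumed to vary like the others. The causes were not tested. No other alternative gave a call, the fit without the cells with granule genes included. No paired analysis was possible because the labels give the pups of the genotypes no shared numbers.

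The depth of mutant pups 4 and 5, with 3 and 5 selected cells, limits every comparison within the lymphoid cells.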
